A study of Mus musculus with 18 samples.

Results

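Genes of 2 families that each lie in a cluster, p200 and Ms4a, are described here in the 12 mouse RNA sequencing libraries of a study of memory T helper 2 (Th2) cells and allergic lung. The 10 genes are Ifi202b, Ifi203, Ifi204, Ifi205 and Aim2 on chromosome 1, and Ms4a4b, Ms4a4c, Ms4a4d, Ms4a6b and Ms4a6c on chromosome 19, out of 23284 gene symbols in the mouse tables. They were chosen by name, after their lower levels in Th2 cells cultured with IL-33 had been seen. Their values in that comparison are therefore a description, with no test, while the comparison of lungs was not used for the choice and is tested. Each gene has 1 entry in each library's table.

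The study, whose title concerns amphiregulin-producing memory Th2 cells, eosinophils and airway fibrosis, holds 18 libraries in 6 groups of 3. The 4 mouse groups are all labelled BALB/c. Memory Th2 cells with high ST2, the receptor chain for the alarm cytokine IL-33, were cultured for 3 days with the T cell growth factor IL-2 alone (replicates 1, 3 and 5) or with IL-2 plus IL-33 (replicates 2, 4 and 6), so both groups carry IL-2. Whole lung came from wild-type mice and from knock-out mice labelled dGATA, both treated with ovalbumin (OVA), with replicates 1 to 3 in each group. The labels do not spell out the dGATA allele, the study's design text names HDM where the lung labels name OVA, and no age is given. Nothing in the labels says that replicates came from separate animals or cultures, so any p-value measures only the spread between these libraries, which may be technical.

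Levels are in FPKM, fragments scaled by transcript length and by library size, which allows levels of different genes to be set side by side per length. Taking the first library of either set as 1.0, relative depth was 0.67 to 1.34 among Th2 and 0.58 to 1.0 among lung libraries. The lowest Th2 depths were 0.67 in IL-2 replicate 5 and 0.74 in IL-33 replicate 6. The Th2 libraries carried T cell markers, with Gata3 at 76.7 to 240 FPKM and Il1rl1, which encodes ST2, at 44.5 to 57.9 FPKM with IL-2 and 506 to 517 FPKM with IL-33. Gata1 was at 0.963 to 1.65 FPKM in wild-type and 0.126 to 0.314 FPKM in dGATA lungs, and summed eosinophil markers at 18.5 to 27.8 and 6.36 to 9.18 FPKM.

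The p200 proteins, also called HIN-200 or PYHIN proteins, are induced by interferons and bind DNA through a HIN domain, and most carry a pyrin domain through which they meet other proteins. Aim2 is the member that senses double-stranded DNA in the cytosol and recruits the adaptor Pycard to form an inflammasome, which activates caspase-1. The Ms4a genes encode small membrane proteins that cross the membrane several times, the best known being the B cell antigen CD20, encoded by Ms4a1. Ms4a4b is known from T cells, where it affects activation and proliferation.

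The 5 p200 genes lie within 611.2 kb of chromosome 1 (mm10), from Aim2 at chr1:173420604-173466036 through Ifi204 at chr1:173747294-173766919, Ifi203 at chr1:173920403-173942492 and Ifi202b at chr1:173962569-173982844 to Ifi205 at chr1:174011998-174031755. The 5 Ms4a genes lie within 150.8 kb of chromosome 19: Ms4a4c at chr19:11407661-11427246, Ms4a4b at chr19:11443558-11463548, Ms4a6c at chr19:11469368-11482196, Ms4a6b at chr19:11518559-11530403 and Ms4a4d at chr19:11536849-11558466. These are the gene spans of the deposited tables.

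The 250 bases before the annotated start were read from RefSeq (GRCm38.p6) and searched on both strands for a pair of GAAA words with any 2 bases between them, the core of the interferon-stimulated response element. Ifi204 has no entry in that table, so 4 p200 and all 5 Ms4a genes were matched, with 5 start sites for the p200 genes. The motif stands before Ifi203, at the second of its start sites and 35 bases before it, and before Ifi205, at 134 bases before the start. Of all 32851 promoters of this length, 978 (2.98%) hold it. Both sequences are shown with that of Pydc3, a p200 gene outside the 10 that is named Ifi208 in RefSeq, because all share letters beyond the motif. Capitals mark the motif, and each runs 5′ to 3′ on the gene's strand. They are Ifi203 at chr1:173942493-173942742 (minus strand), Ifi205 at chr1:174031756-174032005 (minus strand) and Pydc3 at chr1:173673415-173673664 (plus strand).
Ifi203: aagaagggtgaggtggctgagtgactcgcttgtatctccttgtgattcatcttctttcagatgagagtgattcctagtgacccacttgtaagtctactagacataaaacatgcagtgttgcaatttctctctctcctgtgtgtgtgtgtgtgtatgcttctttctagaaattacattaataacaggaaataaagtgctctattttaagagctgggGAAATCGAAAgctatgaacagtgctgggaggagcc
Ifi205: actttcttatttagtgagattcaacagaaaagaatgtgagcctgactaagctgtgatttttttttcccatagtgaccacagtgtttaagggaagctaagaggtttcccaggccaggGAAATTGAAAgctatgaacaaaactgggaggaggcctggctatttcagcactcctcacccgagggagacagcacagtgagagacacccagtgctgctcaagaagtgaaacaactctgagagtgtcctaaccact
Pydc3: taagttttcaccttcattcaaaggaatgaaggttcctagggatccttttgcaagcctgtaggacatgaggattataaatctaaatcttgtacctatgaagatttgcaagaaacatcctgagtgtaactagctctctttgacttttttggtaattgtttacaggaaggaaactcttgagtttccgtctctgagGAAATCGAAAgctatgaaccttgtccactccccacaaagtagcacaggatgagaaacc

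In all 3 sequences the last GAAA of the motif opens the 13-letter run GAAAGCTATGAAC. It is the longest run common to them. On either strand that run is in 7 of the 32851 promoters (0.0213%), which belong to 7 genes. Of these, 6 are among the 10 p200 genes that could be matched, namely Ifi203, Ifi205, Mndal, Pydc3, Pydc4 and Mnda, and the other is Ifi206, a p200 gene not analysed here. Among the other p200 genes, the pair of GAAA words is before 5 of 6 that were matched, Pyhin1 being the exception. The motifs were chosen with the expression values known, and a match describes letters, not a bound site.

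Before the Ms4a genes this motif is in 0 of 5. TTCNNNGAA, the core of the gamma-activated site, is in the window of Ifi202b only among the 9 genes matched, 148 bases before its start, and in 2306 of all promoters (7.02%). The sequences before Ms4a4b (chr19:11443308-11443557, plus strand) and Ms4a4c (chr19:11407411-11407660, plus strand) can be aligned over 183 identical bases (73.2% of the window). The other 9 pairs of these 5 Ms4a genes gave 44.8 to 52.4%. Gm8369, an Ms4a gene outside the 10, was not aligned, although the sequence before it holds many of the same letters. Those before Ms4a4b and Ms4a4c are shown because these genes had the highest and the third highest FPKM of the 10 in IL-2 cultures and the widest differences. Capitals mark their longest identical run, 20 bases, which is in no other promoter of the table.
Ms4a4b: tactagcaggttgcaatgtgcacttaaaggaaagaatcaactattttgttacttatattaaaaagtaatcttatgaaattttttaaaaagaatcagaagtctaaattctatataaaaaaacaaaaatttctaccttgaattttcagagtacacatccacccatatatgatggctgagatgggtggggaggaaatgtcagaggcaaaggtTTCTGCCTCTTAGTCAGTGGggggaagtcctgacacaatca
Ms4a4c: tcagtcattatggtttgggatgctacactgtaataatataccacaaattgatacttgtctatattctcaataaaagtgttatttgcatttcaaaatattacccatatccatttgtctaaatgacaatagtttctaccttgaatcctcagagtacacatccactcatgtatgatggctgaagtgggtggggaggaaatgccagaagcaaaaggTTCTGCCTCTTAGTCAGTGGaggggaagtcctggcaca

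Ms4a6b and Ms4a6c share a longer identical run, 48 bases, but over the whole window 130 bases align (52.0%).

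The first comparison asked how IL-33 alters memory Th2 cells. All 10 genes were lower in each of the 3 IL-33 cultures than in any of the 3 IL-2 cultures. Among 10296 genes tested, 35.0% were likewise lower without overlap, and since this comparison led to the choice of genes, nothing is read from the count. Summed over the 10, the level was 1027.2 to 1105.4 FPKM with IL-2 and 59.3 to 75.2 FPKM with IL-33. The mean of 6 genes was at least 7.74-fold lower with IL-33 and their log2 difference was -2 or below, a size reached by 1.37% of genes tested. Differences below are IL-33 minus IL-2 on the scale log2(FPKM + 1), which understates the change of genes near or below 1 FPKM, and each SD is pooled over the 2 groups.

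Among the p200 genes, Ifi202b, whose protein has HIN domains but no pyrin domain and counteracts Aim2, was the most abundant per length. It was at 107, 114 and 105 FPKM with IL-2, and at 3.98, 2.32 and 6.10 FPKM with IL-33. The 3 IL-2 cultures were close together and every IL-33 culture was far below them. The mean was 108 ± 5.07 FPKM (SD, n = 3) with IL-2 and 4.13 ± 1.90 FPKM with IL-33, 26.2-fold lower, with a log2 difference of -4.48 (SD 0.39).

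Ifi203 encodes a nuclear p200 protein. It was at 64.3, 69.9 and 73.2 FPKM with IL-2 and at 5.86, 5.72 and 4.99 FPKM with IL-33. Replicates of either group lay close together, so that a mean of 69.1 ± 4.51 FPKM stood against 5.52 ± 0.470 FPKM (SD, n = 3 each), 12.5-fold lower, with a log2 difference of -3.43 (SD 0.10).

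Ifi204, the mouse gene usually set beside human IFI16, whose product senses DNA and supports interferon beta production, was at 21.1, 23.9 and 19.8 FPKM with IL-2. It was at 1.78, 1.75 and 1.64 FPKM with IL-33, so that replicates again lay close together and the groups far apart. The fold between the means, 21.6 ± 2.09 and 1.72 ± 0.0750 FPKM (SD, n = 3 each), was also 12.5, although Ifi204 started from a lower level than Ifi203, and its log2 difference was -3.05 (SD 0.10).

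Ifi205, a p200 gene known from macrophages, was barely present in these T cells, at 1.5, 1.18 and 1.69 FPKM with IL-2 and 0.229, 0.297 and 0.108 FPKM with IL-33. Every IL-33 value was below every IL-2 value, yet all 6 lie near or under 1 FPKM. The log2 difference was -1.02 (SD 0.14).

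Aim2 differed from the other 4 p200 genes in keeping most of its level. It was at 9.91, 10.2 and 13.8 FPKM with IL-2 and at 6.38, 7.32 and 7.85 FPKM with IL-33. The groups did not overlap, but the highest IL-33 culture and the lowest IL-2 culture were close. The mean with IL-33, 7.18 ± 0.744 FPKM, was 63.5% of the 11.3 ± 2.18 FPKM with IL-2 (SD, n = 3 each), and the log2 difference was -0.58 (SD 0.20).

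Ms4a4b was the most abundant of the 10 genes per length. It was at 543, 550 and 530 FPKM with IL-2 and at 18.0, 17.9 and 23.3 FPKM with IL-33. The IL-2 cultures were almost level, and its place among all 23284 symbols by mean FPKM moved from 138 with IL-2 to 3442 with IL-33. The means of 541 ± 10.1 and 19.7 ± 3.08 FPKM (SD, n = 3 each) were 27.5-fold apart, with a log2 difference of -4.72 (SD 0.15), and Ms4a4b made up 51.1% of the FPKM of the 10 genes with IL-2 and 29.7% with IL-33.

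Its neighbour Ms4a4c was at 137, 153 and 122 FPKM with IL-2 and at 3.80, 2.35 and 6.60 FPKM with IL-33. The same IL-33 culture, replicate 6, was the highest of its group for Ms4a4b, Ms4a4c, Ifi202b, Aim2 and Ms4a6c. The Ms4a4c mean of 138 ± 15.8 FPKM against 4.25 ± 2.16 FPKM (SD, n = 3 each) was 32.4-fold lower with IL-33, the widest ratio of the 9 genes for which one can be given, with a log2 difference of -4.80 (SD 0.43).

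Ms4a4d, the third Ms4a4 gene, was close to absent from the cultures. It was at 0.267, 0.115 and 0.445 FPKM with IL-2 and is listed at 0 in all 3 IL-33 cultures. No fold is given against values listed at 0, and the gene did not pass the expression filter of 1 FPKM in 3 of the 6 libraries.

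Ms4a6b kept more of its level than the Ms4a4 pair. It was at 151, 170 and 148 FPKM with IL-2 and at 21.1, 18.9 and 20.5 FPKM with IL-33. The IL-33 cultures were nearly level, and the means of 156 ± 11.9 and 20.2 ± 1.14 FPKM (SD, n = 3 each) were 7.74-fold apart, with a log2 difference of -2.89 (SD 0.09).

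Ms4a6c, often found in monocytes and macrophages, was at 12.9, 12.7 and 13.8 FPKM with IL-2 and at 3.31, 2.75 and 4.16 FPKM with IL-33. Both groups were tight and well apart, and the means of 13.2 ± 0.617 and 3.41 ± 0.709 FPKM (SD, n = 3 each) were 3.86-fold apart, with a log2 difference of -1.69 (SD 0.17).

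The median log2 difference of the 10 genes was -2.97, beside -0.11 over all genes tested, and it is a property of how they were picked. Of the 10, 9 passed the expression filter, Ifi205 through its IL-2 cultures alone. Marker genes of other cell types were measured in the same cultures. Of 8 macrophage markers, 7 were below 1 FPKM in every Th2 library, the exception being Cd68 at 3.78 to 8.11 FPKM, and all 5 B cell markers were below 1 FPKM. The summed monocyte list moved with the 10 genes, from 820 to 1015 FPKM with IL-2 to 422 to 584 FPKM with IL-33, which was mainly Ly6c2 and Ccr2, while Cx3cr1 and Fcgr1 stayed under 0.1 FPKM. The T cell list was at 761 to 909 FPKM with IL-2 and 1197 to 1244 FPKM with IL-33. Its genes did not move together. Cd3d, at 103 to 131 and 283 to 339 FPKM, Cd3g, at 175 to 187 and 440 to 471 FPKM, and Cd4 were higher with IL-33. Cd5 was lower, at 149 to 190 and 58.0 to 101 FPKM, as was Cd6, at 114 to 152 and 63.0 to 97.6 FPKM, and Cd3e overlapped. The natural killer list was at 17.9 to 49.97 FPKM with IL-2 and 295 to 765 FPKM with IL-33, almost all Gzma, with Ncr1 listed at 0 in all 6. The part of these shifts in the values of the 10 genes was not tested.

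**Figure D1:**
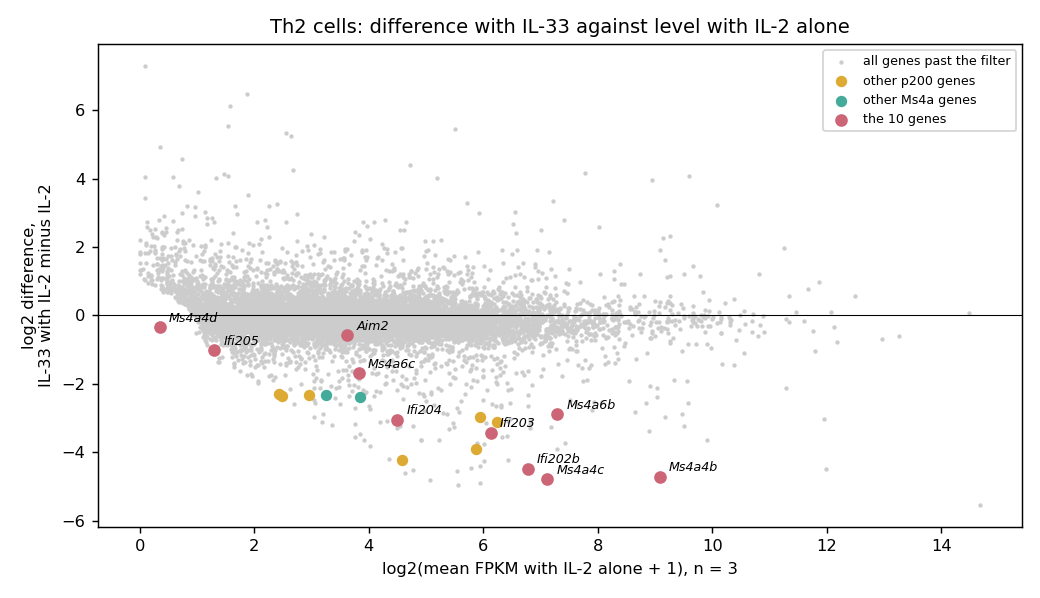
Log2 difference between Th2 cells with IL-2 plus IL-33 and with IL-2 alone, against log2(mean FPKM with IL-2 alone + 1), for all genes past the filter (grey), the other genes of both families, and the 10 genes (red). Of the 10, Ms4a4b sits farthest to the right, at -4.72, and Ms4a4c lowest, at -4.80, while Aim2 at -0.58 and Ms4a4d at -0.34 are close to the zero line.

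Other genes of both families were tested across all genes with limma. Of 17 further p200 symbols listed, 7 are in the tables and all 7 were tested. Of these, 7 of 7 fell with IL-33, against 25.7% of all genes tested, with a median log2 difference of -2.97. Mnda, Pydc3, Pydc4 and AI607873, 4 of them, passed the filter only through the IL-2 cultures, so for these a lower value was built in, and no support is taken from the count. Without IL-2 replicate 1, 3 or 5, these 4 were no longer tested, and 3 of 3 fell. Mndal, a p200 gene of the same cluster, fell from 68.7, 75.7 and 79.0 FPKM to 9.07, 8.12 and 5.94 FPKM, a log2 difference of -3.13 (limma, Benjamini-Hochberg adjusted p = 2.33e-05). Pyhin1, named Ifi209 in RefSeq, fell from 58.4, 62.0 and 60.8 FPKM to 6.59, 6.03 and 7.96 FPKM (log2 difference -2.97, limma adjusted p = 8.89e-06). BC094916 fell from 56.3, 61.2 and 55.2 FPKM to 2.13, 2.83 and 3.90 FPKM (log2 difference -3.91, limma adjusted p = 1.55e-05). In these 3 genes no IL-33 culture came near an IL-2 culture, and their IL-2 means, 57.6 to 74.5 FPKM, lay around that of Ifi203. The other 4 are given as values alone. Pydc3 was at 19.99 to 26.8 FPKM with IL-2 and at 0.152 to 0.327 FPKM with IL-33, a log2 difference of -4.24. Pydc4 (-2.30), AI607873 (-2.36) and Mnda (-2.31) were between 4.20 and 7.32 FPKM with IL-2 and below 1 FPKM with IL-33.

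Of 15 further Ms4a symbols, 12 are in the tables and 2 passed the filter in Th2 cells. Both fell, beside 25.7% of all genes tested. Ms4a6d fell from a mean of 13.4 to 1.76 FPKM (log2 difference -2.39, limma adjusted p = 0.000135). Gm8369 is given as values alone, with a mean of 8.51 FPKM with IL-2 and 0.933 FPKM with IL-33 (log2 difference -2.33). Its IL-33 cultures were at 0.862, 0.466 and 1.47 FPKM. It thus passed the filter mainly through its IL-2 cultures, its lower value was largely built in, and no support is taken from the count. Ms4a1, the CD20 gene of B cells, was at or below 0.404 FPKM and Ms4a7, a macrophage gene, at or below 0.167 FPKM in all 6 Th2 libraries.

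The flanks of each cluster were read from 500 kb before the first to 500 kb after the last of the 10 genes. Around the p200 genes 41 symbols were found, of which 5 are among the 10, 7 are other p200 genes and 29 are unrelated, 22 of these olfactory receptors, and 0 of the 29 passed the Th2 filter. Around the Ms4a genes 38 symbols were found, 12 of them other Ms4a genes and 21 unrelated, and 7 of the 21 were tested. Of these, 1 rose, AW112010, from a mean of 308 to 653 FPKM (log2 difference 1.06, limma adjusted p = 0.00458). Another 3 had lower levels that passed the test: Mrpl16 (-0.64), Ccdc86 (-0.54) and Prpf19 (-0.37). Over all genes tested 16.3% were called higher and 25.7% lower, so nothing is read from these counts. Stx3 (-0.02), Patl1 (0.07) and Osbp (0.07) did not pass the test. The median of the 7 neighbours was -0.02, and 0 of them reached -1.

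**Figure D2:**
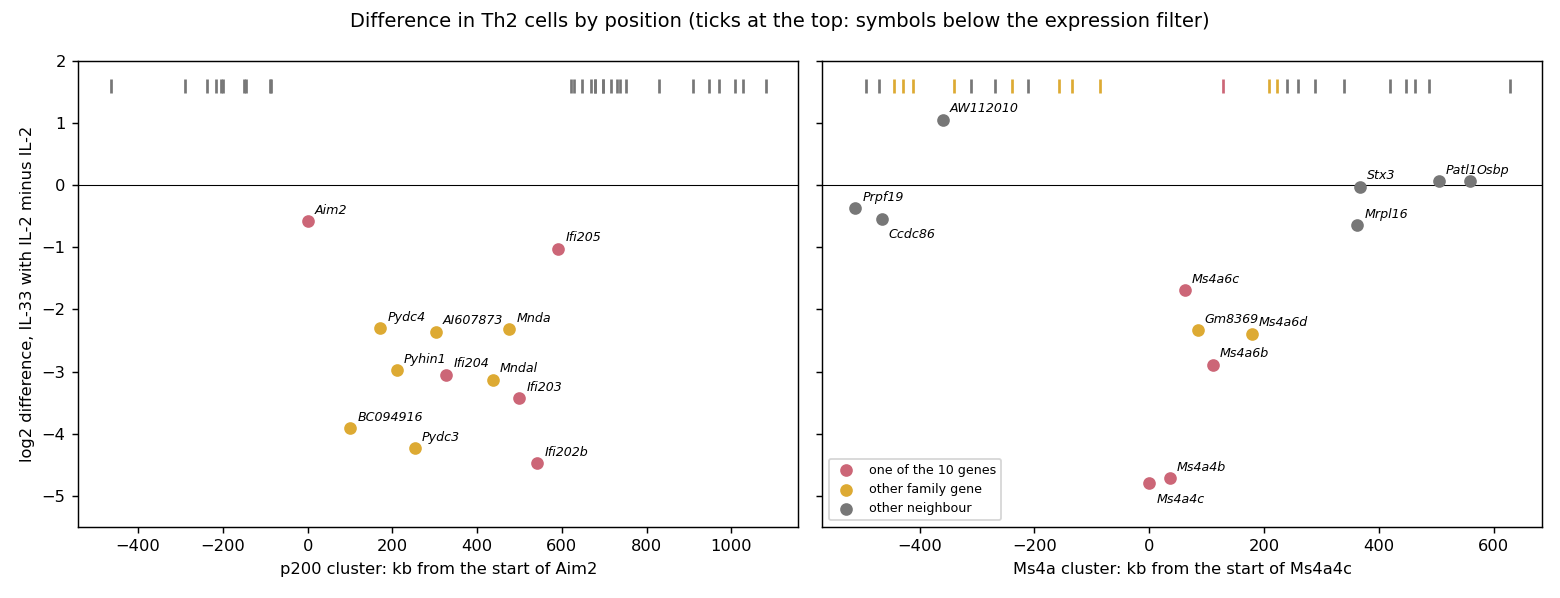
Log2 difference in Th2 cells, IL-2 plus IL-33 minus IL-2 alone, by distance in kb from the start of the first of the 10 genes, for the p200 cluster (left) and the Ms4a cluster (right); red marks the 10 genes, other colours the other family genes and other neighbours, and ticks at the top are symbols below the filter. Family genes lie between -0.58 and -4.80, and the 7 neighbours of the Ms4a cluster between -0.64 and 1.06.

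Genes of 2 further lists were read, of interferon signalling and of DNA sensing and the inflammasome. Both lists were chosen with earlier results of these data known, so p-values in them are no independent support either. Of 14 interferon signalling genes, all tested, 7 fell and 2 rose with IL-33, beside 25.7% and 16.3% of all genes, with a median of -0.63. Of the 7 that fell, Ifnb1, which encodes interferon beta, had passed the filter through IL-2 cultures alone, so its lower value was built in. Its mean was 4.37 FPKM with IL-2 and 0.0687 FPKM with IL-33. Irf7, the factor that amplifies type I interferon production, fell from 229 to 254 FPKM to 35.6 to 49.6 FPKM, a log2 difference of -2.52 (limma adjusted p = 2.93e-05). Stat2 (-1.76, limma adjusted p = 0.000374) and Irf9 (-0.81, limma adjusted p = 0.000681), which act downstream of the type I interferon receptor, fell too, as did Irf8 and Jak1. The receptor chains of interferon gamma, Ifngr1 (0.50) and Ifngr2 (0.54), were the 2 that rose, Ifngr2 with an adjusted p (limma) of 0.0484, and the count of genes that rose ran from 1 to 3 over the 15 alternatives tried. Both receptor chains of the type I interferons, Ifnar1 (-0.34) and Ifnar2 (0.23), did not pass the test.

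Of 17 DNA sensing and inflammasome genes in the tables, 13 were tested, 9 fell and 0 rose, also 0 at an unadjusted p below 0.05 in limma, beside 25.7% and 16.3% of all genes, with a median of -0.49. Il18 and Nlrp1b, 2 of the 9, passed the filter through IL-2 cultures alone, so their lower values were built in. Without IL-2 replicate 5 and IL-33 replicate 6 together, 8 of 11 fell and 1 rose. Zbp1, a sensor of left-handed nucleic acids, fell from 350 to 388 FPKM to 85.0 to 113 FPKM (log2 difference -1.92, limma adjusted p = 6.65e-05). Il18, a cytokine matured by caspase-1, had a mean of 9.19 FPKM with IL-2 and 0.0588 FPKM with IL-33. Samhd1, which degrades nucleotides, fell by 1.15 (limma adjusted p = 9.74e-05), Tmem173, which encodes STING, by 0.72 (limma adjusted p = 0.000901) and Casp4 by 1.19 (limma adjusted p = 0.00124) on the log2 scale. Pycard, the adaptor that Aim2 recruits, had a log2 difference of 0.29 (limma adjusted p = 0.382). Without IL-2 replicate 1, or without IL-2 replicate 3, 5 of 11 genes tested fell in place of 9 of 13.

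The second comparison asked what differs in the lung of dGATA mice after OVA. None of the 10 genes passed the test: 0 of 10, all of which passed the filter, against 0.0947% of 13727 genes tested, by limma with Benjamini-Hochberg adjusted p below 0.05. At an unadjusted p below 0.05 there was 1 of 10, Ifi203, beside 6.84% of all genes. Ifi203 was also the only one of the 10 whose groups did not overlap, against 14.1% of all genes. The median log2 difference, dGATA minus wild type, was -0.18, beside -0.03 over all genes, and it turned to 0.18 without dGATA lung 1. In whole tissue, fewer cells of a type and less RNA per cell cannot be told apart.

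Ifi203 was at 17.3, 17.0 and 16.7 FPKM in wild-type lungs and at 11.97, 13.7 and 15.4 FPKM in dGATA lungs. The wild-type lungs were level and each dGATA lung was lower, with a log2 difference of -0.30 (SE 0.10, limma adjusted p = 0.665). The difference kept its sign in all 15 alternatives, from -0.41 to -0.21, and the lowest adjusted p by limma among them was 0.259. Ifi202b was at 9.17, 8.75 and 7.20 FPKM in wild-type lungs and at 2.88, 12.8 and 9.63 FPKM in dGATA lungs (log2 difference -0.17, SE 0.45, limma adjusted p = 0.965). The dGATA lungs lay on either side of the wild-type range.

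Ifi204 was at 11.4, 9.61 and 10.5 FPKM in wild-type and 3.99, 11.6 and 13.3 FPKM in dGATA lungs (log2 difference -0.25, SE 0.39, limma adjusted p = 0.947). Aim2 was at 5.11, 3.81 and 4.29 FPKM and at 1.80, 5.25 and 4.26 FPKM (log2 difference -0.25, SE 0.30, limma adjusted p = 0.924). In both genes the first dGATA lung was low and the other two were within or above the wild-type range. Ifi205, at 7.52, 6.33 and 5.49 FPKM in wild-type and 5.33, 6.04 and 8.32 FPKM in dGATA lungs, had the smallest difference of the 10 (0.01, SE 0.18, limma adjusted p = 0.993).

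Ms4a4b was at 17.7, 14.4 and 15.7 FPKM in wild-type and 14.4, 21.1 and 18.1 FPKM in dGATA lungs (log2 difference 0.15, SE 0.15, limma adjusted p = 0.910). Ms4a4c was at 5.70, 4.78 and 3.20 FPKM and at 2.32, 4.29 and 5.80 FPKM (log2 difference -0.15, SE 0.30, limma adjusted p = 0.959). For each of these genes the ranges of the groups overlapped. Ms4a6b, at 23.9, 17.7 and 20.5 FPKM and at 14.9, 27.0 and 22.5 FPKM (log2 difference 0.02, SE 0.23, limma adjusted p = 0.992), spread more in the dGATA lungs. Ms4a6c did so too, at 28.7, 21.3 and 22.7 FPKM and at 11.4, 33.1 and 24.7 FPKM (log2 difference -0.18, SE 0.37, limma adjusted p = 0.959).

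Ms4a4d ran the other way within the dGATA group. It was at 12.4, 14.6 and 14.3 FPKM in wild-type and at 16.8, 8.44 and 11.8 FPKM in dGATA lungs (log2 difference -0.19, SE 0.23, limma adjusted p = 0.924). Its highest value of 6 was in dGATA lung 1, where 8 of the 10 genes had their lowest, all but Ms4a4b and Ms4a4d. In dGATA lung 2, Ms4a4d had its lowest value and 5 of the others their highest. The share of all genes with an extreme in either library was not computed, so nothing is read from these counts.

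Summed markers of several cell types moved with these extremes. In dGATA lung 1 the macrophage, T cell, B cell, neutrophil, dendritic cell, fibroblast and Th2 sums, 7 of 13 lists, were the lowest of the 6 lungs. The 8 macrophage markers summed to 611 to 713 FPKM in wild-type lungs and to 210, 1028 and 592 FPKM in dGATA lungs 1, 2 and 3, and the 7 T cell markers to 51.8 to 69.7 FPKM and to 32.2, 94.7 and 69.7 FPKM. Not every macrophage gene followed the sum: in dGATA lung 1 Marco, at 2.18 FPKM, was the highest of the 6, and Mertk, at 17.7 FPKM, was above the wild-type lungs. Other lists were mixed there too. Clec9a, of the dendritic cell list, was the highest of the 6 at 17.4 FPKM. Of the neutrophil list, S100a8 (57.5 FPKM) and S100a9 (76.9 FPKM) lay within the wild-type range, while Retnlg was at 8.47 FPKM against 144 to 228 FPKM in wild-type lungs. Of the fibroblast list, Col1a1 was the lowest of the 6, but Pdgfra, at 53.7 FPKM, was above dGATA lungs 2 and 3. B cell markers summed to 63.8 to 174 FPKM in wild-type and to 41.9, 110 and 140 FPKM in dGATA lungs, and epithelial and endothelial sums were highest in dGATA lung 1. That library had a relative depth of 0.65, and those of dGATA lungs 2 and 3 were 0.76 and 0.58. It had the fewest symbols at 1 FPKM or above of the 6 lungs, 13269 against up to 13920. The part of tissue makeup or of the library itself in the values of the 10 genes was not tested.

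**Figure D3:**
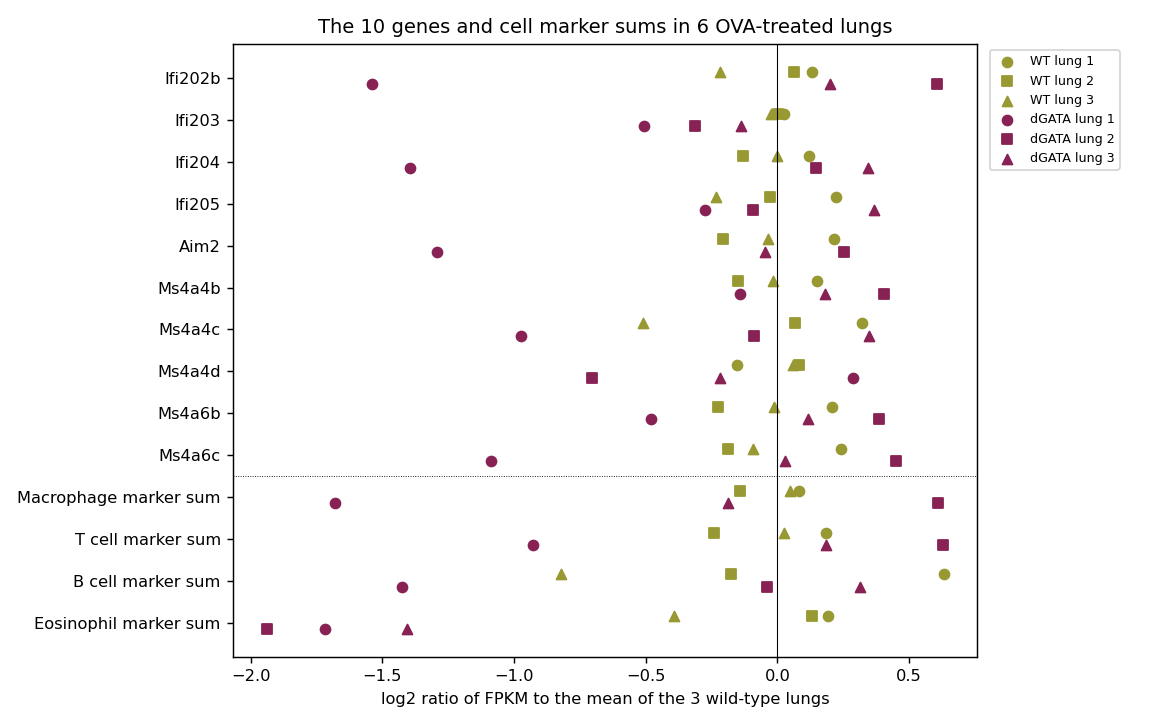
Log2 ratio of each lung library to the mean of the 3 wild-type lungs, for the 10 genes and, under the dotted line, for the summed FPKM of macrophage, T cell, B cell and eosinophil markers; colours stand for genotype and marker shapes for replicate number. The first dGATA lung is the leftmost point for 8 of the 10 genes and for the macrophage, T cell and B cell sums. The share of all genes that were lowest in that lung was not computed.

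Related genes were read in lung as well. Of the other p200 genes 6 were tested and 0 were called, and of the other Ms4a genes 4 were tested and 0 were called. Over all 13727 genes tested 0.0947% were called, so nothing is read from these counts or from those of the lists below. Ms4a7 was at 29.1, 23.0 and 27.1 FPKM in wild-type lungs and at 2.88, 54.6 and 22.9 FPKM in dGATA lungs, a wider spread than any of the 10 genes had. Ms4a6d, at 33.2 to 35.0 FPKM in wild-type lungs, was at 11.3, 53.5 and 29.7 FPKM in dGATA lungs. Of the interferon signalling genes 12 were tested and of the DNA sensing genes 15, with 0 called in either list. At an unadjusted p below 0.05, limma gave 0 in each of these 4 lists as well, beside 6.84% of all genes.

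Over the 4 mouse groups, the genes fell into unlike orders, given here as a description because cultured cells and whole lung differ in more than 1 respect. Of the 10, 7 had their highest mean in Th2 cells with IL-2, and Ifi205, Ms4a4d and Ms4a6c had theirs in lung. Ms4a4b was 34.0-fold and Ms4a4c 30.2-fold higher in IL-2 cultures than in wild-type lung, and Ifi202b 12.95-fold. For Ms4a6b the ratio was 7.53, for Ifi203 4.07, for Aim2 2.57 and for Ifi204 2.05. In the opposite direction, wild-type lung was 49.9-fold above IL-2 cultures for Ms4a4d, 4.42-fold for Ifi205 and 1.84-fold for Ms4a6c. With IL-33, the Th2 cells came down to the lung's level of Ms4a4b, Ms4a4c and Ms4a6b: the ratio of wild-type lung to IL-33 cultures was 0.809, 1.07 and 1.03, and for each of these the IL-33 cultures overlapped at least 1 lung group. For Ifi202b, Ifi203, Ifi204, Ifi205 and Ms4a6c the IL-33 cultures were below every lung library except that the lowest dGATA lung, at 2.88 FPKM of Ifi202b, fell among them.

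The order from the highest group differed by gene, and neighbours in it often overlapped. In Ifi203 it was IL-2, wild-type lung, dGATA lung, IL-33, with no overlap between neighbours. In Ifi202b, Ifi204, Ifi205, Aim2 and Ms4a4d the 2 lung groups overlapped and the other neighbours did not. In Aim2 the IL-33 cultures stood second and above both lung groups, with 6.38 FPKM in the lowest culture and 5.25 FPKM in the highest lung. In Ms4a6c both lung groups overlapped each other, and the dGATA lungs also overlapped the IL-2 cultures. In Ms4a4b, Ms4a4c and Ms4a6b the IL-2 cultures stood alone at the top, and the 3 lower groups ran into one another. Ms4a4b made up 12.7% of the FPKM of the 10 genes in wild-type lung, where Ms4a6c, Ms4a6b and Ifi203 were higher.

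For each gene, the genes with the most similar course over the 12 libraries were found among 14148 genes by the root mean square difference of centred log2(FPKM + 1), the 10 themselves left out. As the 12 libraries hold only 4 groups, a small distance describes mainly 4 group levels. Ifi203 was closest to Mndal (0.19), then Klrk1 (0.21) and Phf11 (0.22). Mndal lies in the same cluster and also holds the 13-letter run before a start, while Klrk1 and Phf11 are not among the 7 genes with that run. Ms4a4b and Ms4a4c were both close to BC094916 (0.35 and 0.40) and to Rsad2 (0.47 and 0.38), which encodes the antiviral protein viperin. Next came Tnfsf4 (0.55) for Ms4a4b and Usp18 (0.50) for Ms4a4c. Ifi202b was closest to the interferon-induced genes Ifi44 (0.38), Iigp1 (0.47) and Usp18 (0.48). Ifi204 was closest to Cd86 (0.27), a costimulatory ligand, then Mnda (0.37) and Il18bp (0.39). Aim2 was closest to Plcb2 (0.12), Stat4 (0.13) and Ampd2 (0.16), and Ms4a6b to Gm4902 (0.20), Mlkl (0.23) and Ifna4 (0.23). Ms4a6c was closest to Rasa4 (0.17), Batf2 (0.23) and Tlr7 (0.29), Ifi205 to Ivd (0.20), Nuak2 (0.21) and Iqcg (0.22), and Ms4a4d, whose level is nearly all in lung, to Amotl1 (0.11), Pde8b (0.15) and Cdk14 (0.15).

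Both families hold near-identical copies, and the deposited counting could divide reads between them. Of the 50-base words in the annotated transcripts of Ifi205, 49.55% are also in those of other genes, nearly all in Mnda, which the reference names Ifi211. For Ifi204 the share is 30.17% and for Ifi203 16.54%. The levels of these 3 genes are thus uncertain, by an amount that the share does not measure. The share is 11.33% for Ms4a6c, 8.19% for Ms4a4c, 5.89% for Ms4a6b and 4.19% for Ms4a4b, mostly with one another, and 0.77% for Aim2, 0.55% for Ms4a4d and 0.0% for Ifi202b. No read length is known, and the reference is of another strain, C57BL/6J.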

How the data were processed

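The members and gene lists were chosen with earlier results of these data known. Total RNA was taken with TRIzol and made into libraries with a stranded mRNA kit, per the labels' protocols. The authors deposited FPKM values per gene; the submitters' processing notes name Bowtie 0.12.8, TopHat 1.3.2, Cufflinks 2.0.2 and mm10, and the files hold no read counts. Values of repeated symbols were summed (240 of 23284). Starts were raised by 1, after which 55.9% of 20564 symbols matched GRCm38 starts, against 3.4% before. Th2 and lung libraries were fitted apart, on genes with at least 1 FPKM in 3 of 6 libraries and on the scale log2(FPKM + 1) of the deposited values, by limma 3.58.1 with trend in R 4.3.3, two-sided, with Benjamini-Hochberg adjustment at 0.05. On simulated data 87% (Th2, 10296 genes) and 70% (lung, 13727 genes) of genes changed by 1 log2 unit were recovered. Only genes with a mean log2(FPKM + 1) above 3 were changed. Recovery below that level, where Aim2 and Ms4a4c lie in lung, is not known. Genes were named by a rule: the 10 genes, the rest of both families, tested neighbours within 500 kb, up to 5 of each list with the smallest p (Irf8, Jak1, Ifngr1, Ifngr2, Ifnar1, Ifnar2 and Pycard were added after their values were seen, as was the naming of untested relatives), and 3 most similar genes each. A gene that the rule covers is not reported here. Equal lung numbers correlated at -0.286, -0.116 and -0.243 after removing group means and were not treated as pairs. Th2 libraries were fitted without a block, and whether neighbouring Th2 numbers form pairs or batches was not examined. Alternatives were other pseudocounts, filters, scalings and fits, and leaving out libraries; counts of the gene lists under them were added after seeing the data. Total depth is unknown; relative depth came from steps of values below 0.2 FPKM. The 6 eosinophil tables hold human genes and enter no comparison here.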

Additional observations from a re-analysis of the deposited data

How the results depend on the processing

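The Th2 differences of all 10 genes kept their sign under the 11 alternatives run for them, and in lung 0 were called under any of 15, with 8 of the 10 tested under the filter of 5 FPKM, which Aim2 and Ms4a4c did not pass, and all 10 under the others. The Th2 median of the 10 genes moved from -2.97 to -3.26 with a pseudocount of 0.1 and -3.11 with 0.5, and lay between -3.02 and -2.90 with libraries left out. A smaller pseudocount widens log2 differences of low genes by construction. Over all genes, Th2 calls numbered 1680 higher and 2651 lower, the latter 1586 after rescaling to TPM. With 1 library left out they ran from 1009 to 1540 higher and 1482 to 3122 lower, lowest without IL-33 replicate 4, and also over 1.5 times fewer without IL-33 replicate 2 (1107 and 1618) and, for lower calls, without IL-2 replicate 3 (1682). Without IL-2 replicate 5 and IL-33 replicate 6 together, 1913 were higher and 3551 lower. The higher share of calls was 38.8%, 54.4% with TPM and 51.4% with median-of-ratios scaling, as the median of all genes moved from -0.106 to -0.0176 and -0.0132. Lung calls numbered 6 higher and 7 lower, with 4 lower under the filter of 5 FPKM, 19 higher and 77 lower when all 12 libraries were fitted together, and 0 to 3 higher and 0 to 6 lower with 1 library left out. The lung fit with the replicate number as a block gave 2 higher and 1 lower, and numbers were not paired in the data. The other p200 genes called lower in Th2 cells went from 7 to 3 without IL-2 replicate 1, 3 or 5, as only 3 were then tested, and to 5 of 5 tested under the filter of 5 FPKM. Ms4a relatives gave 2 in each of these and 1 of 1 tested without IL-2 replicate 5 and IL-33 replicate 6. Interferon signalling gave 5 to 9 lower and DNA sensing 5 to 10. FPKM without counts give no counting error, so values near or below 1 FPKM, as of Ifi205 and Ms4a4d in Th2 cells, have unknown precision.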

Other observations

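The 6 eosinophil libraries, labelled as cultured for 3 days without or with amphiregulin, hold human genes, and 20 of their symbols belong to the PYHIN and MS4A families; 6 of the 20 are listed at 0 in all 6 libraries. MNDA, the myeloid nuclear antigen, was the most abundant, at 121 to 220 FPKM without and 66.2 to 119 FPKM with amphiregulin. The same replicate numbers occur in both groups, and pairing was not examined. IFI16, a nuclear DNA sensor, was at 5.30 to 24.2 FPKM without and 4.79 to 18.9 FPKM with amphiregulin. AIM2 was at or below 1.01 FPKM and PYHIN1 at or below 2.54 FPKM in all 6. MS4A3 ran from 2.79 to 82.6 FPKM and MS4A2, a chain of the IgE receptor, from 0.655 to 64.7 FPKM over the 6 libraries. These values were not tested.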
